A study of Mus musculus with 8 samples.

Results

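The genes described here are 35 genes that interferon is known to induce or that carry out class I antigen presentation, followed in whole mouse uterus of pregnant and pseudopregnant females. They were listed by name, with earlier results of these data known. A gene took its value from a probe set whose only gene symbol was that gene, and from the brightest such probe set over the 8 arrays where there were several. On that basis 32 of the 35 genes had a value, out of 19938 genes on the array with such a probe set. Of those 32, 29 were bright enough to be tested. Isg15 and Gbp2 had only probe sets shared with a second gene symbol, and no probe set was listed for Ifi44, so these 3 have no value.

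All animals were virgin C57BL/6 mice, an inbred laboratory strain, and all uteri were taken on day 3 at 22 h, with the night of mating as day 0. For the pregnant group (n = 4), stud males were the mates, and a uterus was used if it showed no blue dye mark of an attached embryo and yielded blastocysts on flushing. For the pseudopregnant group (n = 4), the mates were vasectomised, so that the hormonal changes of early pregnancy ran their course without an embryo. Each sample is labelled as a biological replicate, and total RNA of the tissue was put on 1 array. The groups differed in the kind of male as well as in the presence of embryos, and these cannot be told apart. Flushing is described for the pregnant uteri only.

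Interferons are secreted proteins that bind receptors on nearby cells and switch on a large common set of antiviral genes through the JAK kinases and STAT transcription factors. Type I and type III interferons act mainly through a complex that holds STAT2 and IRF9 and binds the interferon-stimulated response element (ISRE). Interferon gamma acts mainly through the gamma-activated site (GAS), and also raises the machinery that cuts peptides and loads them on class I molecules. In the uterus of several mammals these genes are known to respond to early pregnancy, and interferon epsilon is made in the lining of the female reproductive tract without infection.

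None of the 29 tested genes passed the test for a rise or a fall in pregnant uterus. The test was limma's moderated test on log2 intensities, with p-values adjusted over all 17491 probe sets kept and a threshold of 0.05, and the members' adjusted p-values ran from 0.13 to 0.99. Over all probe sets 319 passed, which is 1.82%, with 247 higher (1.41%) and 72 lower (0.412%). Without adjustment 4 members had a p under 0.05, namely Zbp1, Irf1, Psmb8 and Tapbp, all with a lower mean in pregnant uterus. Over all probe sets that share was 23.7%, with 9.43% on the lower and 14.3% on the higher side. Differences are log2 values, pregnant minus pseudopregnant, throughout. They ran from -0.28 for Zbp1 to 0.12 for Ifit3, with a median of -0.07 against 0.0019 over all kept probe sets. The difference was below 0 for 21 of the 29 members, and for 49.4% of all kept probe sets. The 95% interval of every one of the 29 lay within a 1.5-fold change in either direction, as did that of 94.4% of all kept probe sets. The widest reached -0.49 for Zbp1 and 0.53 for Ifit3. In whole tissue, fewer cells of a type and less RNA per cell cannot be told apart.

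**Figure D1:**
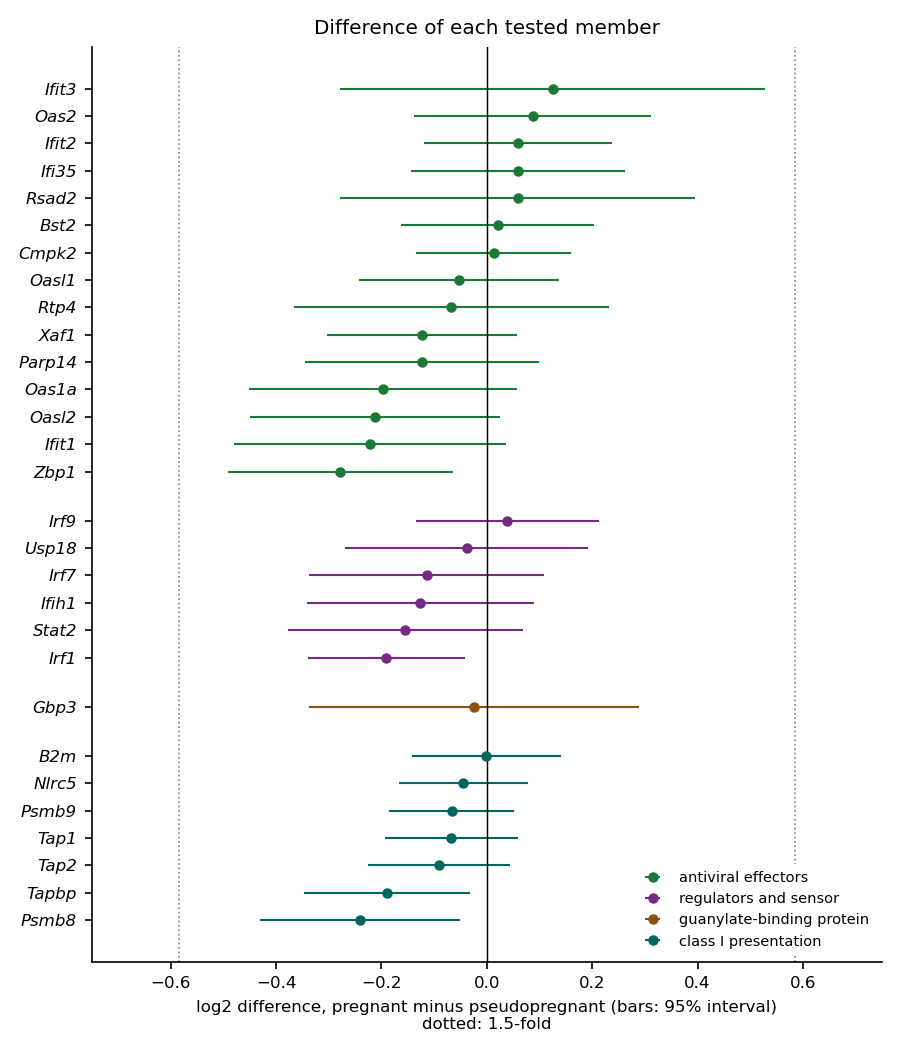
Log2 difference in intensity (pregnant minus pseudopregnant, x axis) of each of the 29 tested members (y axis, grouped by role), with points for the difference and bars for its 95% interval. All bars stay between -0.49 and 0.53, and the 7 class I presentation genes all have points below 0, B2m at -0.0009 (0.0045 when arrays were centred on their medians).

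The 8 arrays had median intensities from 55.2 to 56.3, and arrays of a group correlated at 0.984 to 0.994. RNA integrity numbers ran from 6.9 to 8.7 over the series. Pregnant replicate 2 lay farthest out on the first principal component, at -26.7 against -6.63 to -4.90 for the rest of its group. Pseudopregnant replicate 1 lay at 20.3, against 6.76 to 9.32 for the rest of its group. No member was called without pregnant replicate 2 or without pseudopregnant replicate 1, and the members' median difference was then -0.04 and -0.12. The count of probe sets called over the whole array was 101 without the former and 40 without the latter. The uterine genes Pgr, Esr1, Hoxa10, Hoxa11 and Ihh were all measured, and none was called.

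The DNA in front of the members' start sites is shown because it is what interferon's transcription factors are known to read. RefSeq windows of the GRCm38.p6 assembly, from 250 bases before to 50 after the start, were at hand for 26 of the 35 members. None was at hand for Mx1, Mx2, Oas2, Rtp4, Zbp1, Parp14, Usp18, Tap2 and Nlrc5. The ISRE core was searched as GAAA, any 2 bases and GAAA again, and the GAS as TTC, any 3 bases and GAA, each on both strands. The ISRE core was found in 12 of the 26 members (46.2%) and in 3.99% of all 27025 genes with a window. The GAS was found in 6 of the 26 (23.1%) and in 9.55% of all genes. Counted by window rather than by gene, 3.44% of 32851 windows held the ISRE core and 8.3% the GAS. The members with the ISRE core were B2m, Bst2, Gbp2, Gbp3, Ifih1, Ifit1, Ifit3, Isg15, Oas1a, Oas3, Rsad2 and Stat2. Those with the GAS were Bst2, Ifi35, Ifit2, Irf1, Oas1a and Psmb8, and in 1 window, that of Bst2, the letters of both overlapped. These counts describe letters only and do not show binding.

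Capitals in the sequences below mark the matches, read 5′ to 3′ on the gene's strand. Of the 6 members with the GAS, Irf1 and Psmb8 are shown, in chr11:53769874-53769993 (plus strand) and chr17:34198048-34198167 (plus strand).
Irf1: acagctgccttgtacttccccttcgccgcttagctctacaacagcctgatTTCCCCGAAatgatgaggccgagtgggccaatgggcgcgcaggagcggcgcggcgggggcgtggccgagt
Psmb8: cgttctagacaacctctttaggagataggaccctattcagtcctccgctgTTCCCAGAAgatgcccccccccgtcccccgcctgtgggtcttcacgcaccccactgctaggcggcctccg
Ifit1, Stat2 and Gbp3 hold the ISRE core on the other strand, where it reads TTTC, any 2 bases and TTTC, in chr19:34640735-34640854, chr10:128270248-128270367 and chr3:142559924-142560043 (all plus strand). Ifit1 and Gbp3 carry it at 2 starts each, at -104 and -85 and at -45 and -39 from the gene start, and the pair of Gbp3 overlaps.
Ifit1: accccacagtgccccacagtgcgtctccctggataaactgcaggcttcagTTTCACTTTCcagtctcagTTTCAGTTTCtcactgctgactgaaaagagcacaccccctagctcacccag
Stat2: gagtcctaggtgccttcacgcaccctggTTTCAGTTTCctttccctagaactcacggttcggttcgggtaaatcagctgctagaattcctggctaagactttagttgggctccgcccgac
Gbp3: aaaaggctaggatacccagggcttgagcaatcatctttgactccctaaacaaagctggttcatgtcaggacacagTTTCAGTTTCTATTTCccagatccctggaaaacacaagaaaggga
Ifih1 has its match after the start, in chr2:62646206-62646235 (minus strand).
Ifih1: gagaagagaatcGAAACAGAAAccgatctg
Tapbp (chr17:33919358-33919477) and Oasl2 (chr5:114896814-114896933, both plus strand) had no match to either motif in their windows, and the 120 bases before their starts are given for comparison.
Tapbp: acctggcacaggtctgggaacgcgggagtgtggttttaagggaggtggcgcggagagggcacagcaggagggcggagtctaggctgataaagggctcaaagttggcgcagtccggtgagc
Oasl2: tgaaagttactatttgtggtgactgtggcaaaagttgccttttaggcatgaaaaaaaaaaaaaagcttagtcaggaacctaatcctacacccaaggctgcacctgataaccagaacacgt

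Members with and without either motif had overlapping differences between the groups. The 9 tested members with the ISRE core had differences from -0.22 to 0.12 with a median of -0.02. The 13 tested members with a window and no ISRE core had differences from -0.24 to 0.06 with a median of -0.07. For the GAS, the 6 tested members with it ran from -0.24 to 0.06 with a median of -0.09, and the 16 with a window and no GAS ran from -0.22 to 0.12 with a median of -0.07. No member of any kind was called.

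Among the antiviral effectors, some of which act on viral RNA, on nucleotides or on budding virus, 15 of 20 genes were tested and none was called. Their median difference was -0.05, and 8 of the 15 were below 0. Zbp1, a sensor of Z-form nucleic acid that can start cell death, had log2 intensities of 6.02, 5.88, 6.22 and 6.18 in pregnant replicates 1 to 4 and of 6.37, 6.13, 6.44 and 6.47 in pseudopregnant replicates 1 to 4. Only pseudopregnant replicate 2 lay as low as the pregnant arrays, so the groups overlapped through that single array. The difference was -0.28 ± 0.095 (SE, n = 4 in each group), a ratio of 0.825, with a limma adjusted p of 0.13. This was the largest difference of any member, and it was -0.21 without pregnant replicate 2.

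Oasl2 encodes a relative of the oligoadenylate synthetases, the enzymes whose product activates RNase L. It read 8.33, 8.23, 8.70 and 8.54 in pregnant uterus and 8.57, 8.52, 8.76 and 8.79 in pseudopregnant uterus. Replicates 1 and 2 were the lower arrays in each group, and pregnant replicates 3 and 4 lay inside the pseudopregnant range. The difference was -0.21 ± 0.11 (SE, limma adjusted p 0.26). Ifit1, which binds foreign RNA by its cap, read 6.77, 6.56, 6.98 and 6.93 in pregnant uterus and 6.91, 6.82, 7.16 and 7.24 in pseudopregnant uterus. The ranges overlapped, and the same arrays were low in it as in Oasl2. Its difference was -0.22 ± 0.12 (SE, limma adjusted p 0.28).

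The close relatives of these genes lay on both sides of 0. Oas1a, an oligoadenylate synthetase, differed by -0.20 and Oasl1 by -0.05, while Oas2 differed by 0.09, and the smallest limma adjusted p of the 3 was 0.32. Ifit2 differed by 0.06. Ifit3 was the member with the highest difference, 0.12, and the least certain one: it read 6.64, 7.37, 7.15 and 6.97 in pregnant uterus and 6.61, 6.64, 7.21 and 7.18 in pseudopregnant uterus. The highest Ifit3 value was on pregnant replicate 2, without which the difference was 0.01.

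Rsad2, which encodes viperin, an enzyme that makes a chain-terminating nucleotide, differed by 0.06 ± 0.15 (SE). Its neighbour on chromosome 12, Cmpk2, a nucleotide kinase, differed by 0.01. The lowest Rsad2 value was 5.48 on pseudopregnant replicate 1, where the other arrays of that group read 6.05 to 6.20. Without that array the Rsad2 difference was -0.10. Bst2, which encodes tetherin and holds budding virus at the cell surface, differed by 0.02, and Ifi35 by 0.06. Rtp4 differed by -0.07. Xaf1, a partner of the apoptosis inhibitor XIAP, and Parp14, an ADP-ribosyltransferase, both differed by -0.12.

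Mx1, Mx2 and Oas3 were not tested, because all 8 arrays lay below their own 40th percentile, which fell between 5.23 and 5.32. Mx1, a dynamin-like GTPase that blocks influenza virus and that is known to be defective in many inbred strains, read 4.24 ± 0.076 (SD, n = 4) in pregnant and 4.14 ± 0.12 in pseudopregnant uterus. Mx2 read 4.59 ± 0.18 and 4.75 ± 0.26, and Oas3 read 5.09 ± 0.087 and 5.15 ± 0.14. At such intensities a probe set cannot be told from background, so no level or difference is read from them.

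The regulators and the sensor were all tested, and none of the 6 was called. Their median difference was -0.12, with 5 of 6 below 0. Irf1, a transcription factor induced by interferon gamma, read 6.70, 6.54, 6.67 and 6.64 in pregnant uterus and 6.81, 6.98, 6.78 and 6.73 in pseudopregnant uterus. Every pregnant value lay below every pseudopregnant value, which held for 2 of the 29 members and for 5.39% of all kept probe sets. The reverse order held for 0 members and for 9.23% of all kept probe sets. The gap between the groups was narrow, from 6.70 to 6.73. The difference was -0.19 ± 0.067 (SE), a ratio of 0.876, with a limma adjusted p of 0.13, and it was -0.16 without pregnant replicate 2. A second, dimmer probe set of Irf1 differed by -0.03 with overlapping groups (limma adjusted p 0.75), and the mean over both differed by -0.11 (0.24).

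Stat2, the partner of IRF9 in the type I interferon complex, read 7.38, 7.30, 7.75 and 7.62 in pregnant uterus and 7.65, 7.52, 7.74 and 7.74 in pseudopregnant uterus. Pregnant replicates 1 and 2 lay below the others and pregnant replicate 3 was the highest array of all. The difference was -0.15 ± 0.10 (SE, limma adjusted p 0.37). Ifih1 encodes MDA5, a sensor of long double-stranded RNA. It read 6.44, 6.66, 6.81 and 6.78 in pregnant uterus and 6.61, 6.79, 6.82 and 6.97 in pseudopregnant uterus, with overlapping ranges. Its difference was -0.13 ± 0.096 (SE, limma adjusted p 0.45). Irf7, which amplifies type I interferon production, differed by -0.11, Irf9 by 0.04 and Usp18, which removes ISG15 from proteins and damps the receptor, by -0.04.

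Of the guanylate-binding proteins, GTPases that attack vacuoles holding microbes, only Gbp3 could be tested. Gbp3 read 7.07, 7.05, 7.32 and 7.03 in pregnant uterus and 6.78, 7.04, 7.53 and 7.22 in pseudopregnant uterus. Replicate 3 was the highest array in each group, and the pseudopregnant range enclosed the pregnant one. The difference was -0.02 ± 0.14 (SE, limma adjusted p 0.93).

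**Figure D2:**
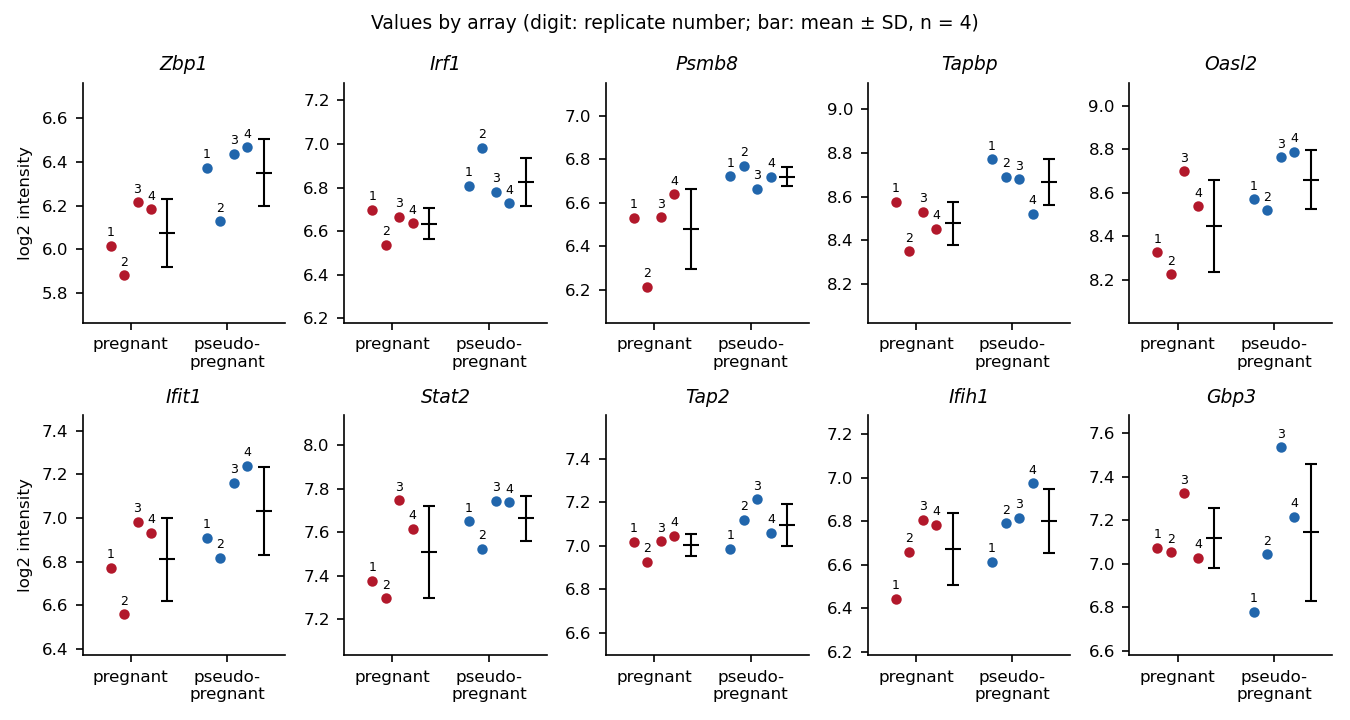
Log2 intensity (y axis) of 10 members on each array, with pregnant arrays in red and pseudopregnant arrays in blue (x axis); digits are replicate numbers and the bar beside each group is its mean ± SD (n = 4). The groups do not overlap for Irf1 and Psmb8 and overlap for the other 8 genes shown.

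The class I presentation genes supply and load the peptides that cells show to T cells. All 7 were tested, none was called, and all 7 had a difference below 0, with a median of -0.07; B2m, at -0.0009, turned to 0.0045 when arrays were centred on their medians. Averaged over the 7 genes, log2 intensity ran from 8.04 to 8.17 on the pregnant arrays and from 8.20 to 8.23 on the pseudopregnant arrays. The gap between these ranges was narrow, and the groups overlapped when intensities were summed (3979 to 4377 against 4244 to 4358). Of the 7, only Psmb8 had groups that did not overlap. Psmb8, a catalytic subunit of the immunoproteasome, read 6.53, 6.21, 6.53 and 6.64 in pregnant uterus and 6.72, 6.77, 6.67 and 6.72 in pseudopregnant uterus. The groups did not overlap, and pregnant replicate 2 was well below the rest. The difference was -0.24 ± 0.085 (SE), a ratio of 0.847, with a limma adjusted p of 0.13. Without pregnant replicate 2 it was -0.15, with an adjusted p of 0.19.

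Tapbp encodes tapasin, which holds empty class I molecules at the peptide transporter. It read 8.58, 8.35, 8.53 and 8.45 in pregnant uterus and 8.77, 8.69, 8.68 and 8.52 in pseudopregnant uterus. Pseudopregnant replicate 4 fell within the pregnant range, and the other 3 arrays of its group lay above it. The difference was -0.19 ± 0.071 (SE, limma adjusted p 0.15). Tap2, a subunit of that transporter, read 7.02, 6.93, 7.02 and 7.05 in pregnant uterus and 6.99, 7.12, 7.21 and 7.06 in pseudopregnant uterus. The ranges overlapped through pseudopregnant replicate 1, and the difference was -0.09 ± 0.060 (SE, limma adjusted p 0.38).

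Psmb9, Tap1, Psmb8 and Tap2 are consecutive protein-coding genes on chromosome 17, and the RefSeq windows of Psmb9 and Tap1 share 275 bases on opposite strands. Psmb9, another immunoproteasome subunit, and Tap1, the other transporter subunit, both differed by -0.07. B2m, the invariant light chain of class I molecules, was nearly equal in the groups, at 11.49 ± 0.11 (SD, n = 4) in pregnant and 11.49 ± 0.039 in pseudopregnant uterus, with an interval of the difference from -0.14 to 0.14. Nlrc5, the transactivator of class I genes, had 19 probe sets of its own symbol, with mean log2 intensities from 4.85 to 8.62. The brightest differed by -0.04 (limma adjusted p 0.65). Of the 18 that were tested, 14 were below 0 and none was called; 4 had an unadjusted p under 0.05 below 0 and 1 above 0, and the smallest adjusted p was 0.084. The probe sets of Nlrc5 thus disagreed in sign, from -0.26 to 0.26.

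Within the groups the members did not vary independently. Deviations from the group mean were correlated between each pair of members over the 8 arrays, as a description. The median r was 0.34 over the 406 pairs of the 29 members, and 73.9% of the pairs were above 0. Over all 13038 genes the median was 0.02 and the share above 0 was 52.0%. The 22 members outside class I presentation had a median r of 0.37, and the 7 class I genes had 0.20. Without pregnant replicate 2 the medians were 0.50 for the 22 genes and -0.10 for the 7, so the likeness among the class I genes rested on that array.

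The genes closest to the mean of the other members were Rtp4 (r = 0.95 over 8 arrays), Oasl2 (0.93), Usp18 (0.90) and Parp14 (0.87). Ifit1, Oas2 and Stat2 each had an r of 0.86. Irf1 and Tapbp had an r of -0.23 each and Bst2 of -0.10, so these did not follow the others. For Rtp4 the deviations were -0.09, -0.32, 0.27 and 0.14 on pregnant replicates 1 to 4 and -0.23, -0.10, 0.21 and 0.11 on pseudopregnant replicates 1 to 4. The mean deviation of the 22 genes was -0.09, -0.08, 0.13 and 0.04 on the pregnant arrays and -0.11, -0.07, 0.11 and 0.08 on the pseudopregnant arrays. As levels, the mean of the 22 genes ran from 6.74 to 6.96 on the pregnant arrays and from 6.79 to 7.01 on the pseudopregnant arrays, so the groups overlapped. Arrays share their preparation and the normalization, so the 8 points are not free of common error, and what moved these genes together was not tested.

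**Figure D3:**
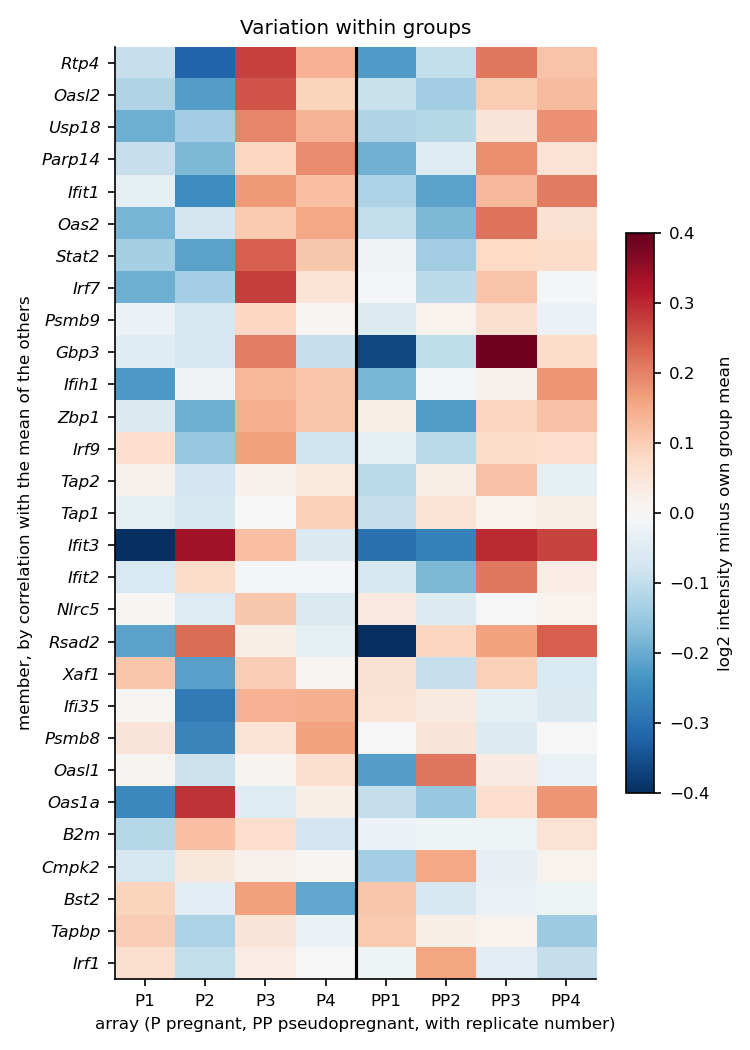
Deviation from the group mean (colour, log2 units, with the scale ending at 0.4 in either direction) of the 29 tested members (rows) on the 8 arrays (columns). Most antiviral effectors and regulators are positive together on replicate 3 of each group, as Rtp4 is at 0.27 and 0.21. Over the 8 arrays Irf1, Tapbp and Bst2 do not follow the mean of the other members (r of -0.23, -0.23 and -0.10). On replicate 3 alone Tapbp is also above 0 in both groups, at 0.05 and 0.01.

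The other genes of these pathways were read from lists of 138 genes, of which 111 had a probe set and 96 were tested. Of those, 3 rose (Ifngr1, Jak1 and Aim2) and 1 fell (Gbp5). Their median difference was -0.02. Of the ligands, Ifng, Ifnb1, Ifna4 and Ifnk were below the filter on all 8 arrays, Ifng at a mean of 4.56 in pregnant and 4.53 in pseudopregnant uterus. Ifne, the interferon of the reproductive tract, differed by -0.19 (limma adjusted p 0.18), Ifnl2 by -0.26 (0.20) and Ifnz by -0.08, so none of the 3 tested ligands was called. The Ifne means were 5.14 in pregnant and 5.33 in pseudopregnant uterus, near background. On 4 of the 8 arrays, 2 of them pregnant, Ifne lay below the array's own 40th percentile.

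Ifngr1, the ligand-binding chain of the interferon gamma receptor, read 8.63, 8.77, 8.70 and 8.61 in pregnant uterus and 8.35, 8.40, 8.45 and 8.44 in pseudopregnant uterus. All pregnant values were higher, and the rise was 0.27 ± 0.054 (SE, limma adjusted p 0.042). Leaving out any single array raised its adjusted p above the threshold, to between 0.064 and 0.11. The call was also lost with quantile normalization repeated, with cyclic loess (adjusted p 0.054 in each), with no intensity filter (0.087) and with the replicate block (0.071). The other receptor chains were not called: Ifngr2 differed by -0.08, Ifnar1 by 0.01 and Ifnar2 by 0.08. Il10rb, shared by the receptors of interferon lambda and interleukin 10, differed by 0.35 (limma adjusted p 0.075).

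Jak1, the kinase that serves all 3 interferon receptor types, read 10.02, 10.07, 9.98 and 9.999 in pregnant uterus and 9.72, 9.74, 9.62 and 9.82 in pseudopregnant uterus. The groups did not overlap, and the rise was 0.29 ± 0.056 (SE, limma adjusted p 0.037). With 1 array left out it passed only without pseudopregnant replicate 4, and its adjusted p otherwise lay between 0.057 and 0.095. It was also lost with no intensity filter (adjusted p 0.075) and with the replicate block (0.062). The phosphatases Ptpn6 and Ptpn2, which switch the pathway off, differed by 0.23 (limma adjusted p 0.063) and 0.25 (0.093).

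Among the sensors, Aim2, which detects DNA in the cytosol, rose by 0.63 ± 0.086 (SE, limma adjusted p 0.016). It read 5.62, 5.99, 5.86 and 5.81 in pregnant uterus and 5.29, 5.02, 5.20 and 5.25 in pseudopregnant uterus, where all 4 arrays lay below their own 40th percentile, so it passed the intensity filter through the pregnant arrays alone. The call was kept without any single array except pseudopregnant replicate 3 (adjusted p 0.051). Myd88, the adaptor of most Toll-like receptors, had the largest difference of the pathway genes, -0.84, and was not called (limma adjusted p 0.097): it read 8.36 on pregnant replicate 2 and 10.55 on pseudopregnant replicate 1, and from 9.27 to 9.85 on the other 6 arrays. Without pregnant replicate 2 its difference was -0.58.

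Gbp5, a guanylate-binding protein that promotes inflammasome assembly, fell by 0.42 on the log2 scale (SE 0.078, limma adjusted p 0.034). It read 4.996, 5.17, 5.28 and 5.22 in pregnant uterus and 5.71, 5.44, 5.63 and 5.58 in pseudopregnant uterus. In all, 3 arrays lay below their own 40th percentile, and all 3 were pregnant. The 4 pseudopregnant arrays alone were enough for it to pass the intensity filter, and the pregnant values lay near background. The fall passed the threshold without pregnant replicate 3 and without pseudopregnant replicate 2; leaving out any of the other 6 arrays gave adjusted p-values from 0.057 to 0.094. It was also lost with no intensity filter (adjusted p 0.064) and with the replicate block (0.060). Cxcl10, a chemokine induced by interferon gamma, differed by -0.41 (limma adjusted p 0.066) and Irf8, a transcription factor of myeloid cells, by 0.31 (0.052); Irf8 was called under 4 of 18 alternatives, with adjusted p-values over all 18 from 0.042 to 0.12. Of 44 further interferon-stimulated genes 36 were tested and none was called, with a median difference of -0.01 and 19 below 0; the smallest p-values belonged to Ifi27 (-0.25, limma adjusted p 0.064), Epsti1 (0.23, 0.070) and Slfn9 (0.45, 0.086).

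**Figure D4:**
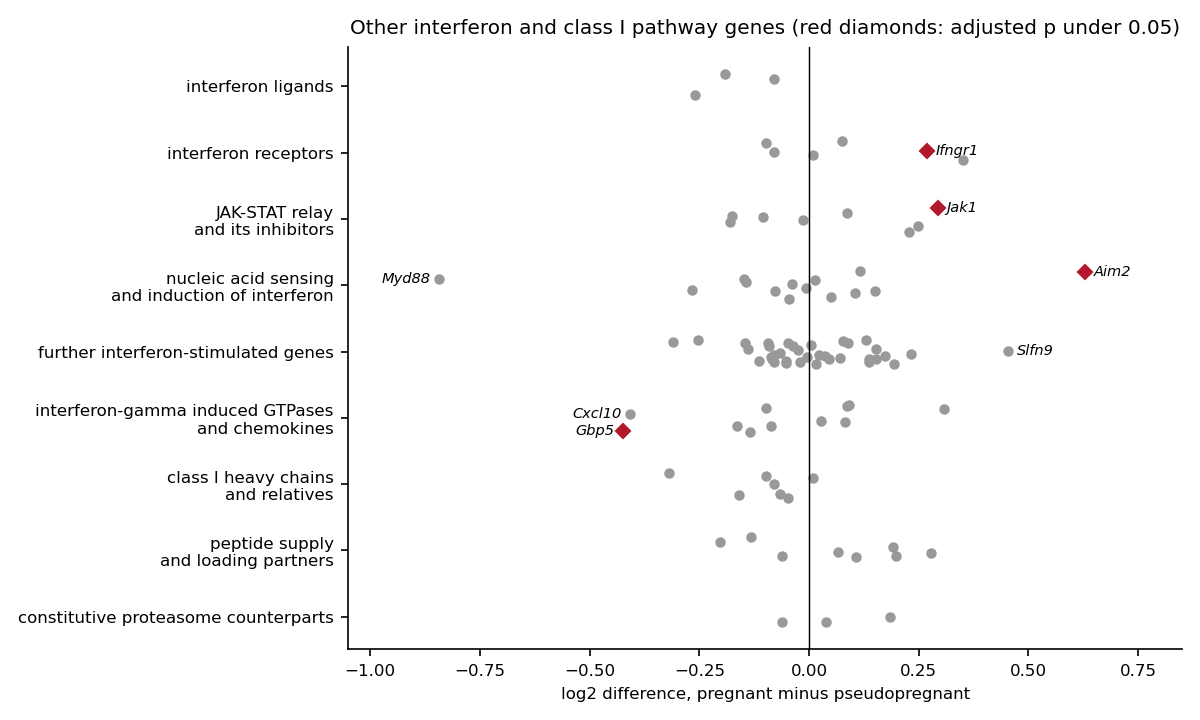
Log2 difference (pregnant minus pseudopregnant, x axis) of 96 other interferon and class I pathway genes by list (y axis), each point a gene; red diamonds passed an adjusted p of 0.05 and are named with the genes farthest from 0 and Cxcl10. Ifngr1, Jak1 and Aim2 lie to the right and Gbp5 to the left.

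Around class I presentation, no partner gene was called in the fit reported here. Under the alternatives Pdia3 was called in 4 of 18 (adjusted p from 0.040 to 0.11 over all 18), Canx in 1 of 18 (limma-trend, 0.040) and H2-T10 in 1 of 17 (without pregnant replicate 3, 0.044). H2-K1 and H2-D1, the classical heavy chains, had no probe set of their own symbol. Of the 7 heavy chains and relatives tested, 6 were below 0 and H2-T10 had the smallest p (-0.32, limma adjusted p 0.066). H2-T10 lay near background in pregnant uterus. Its 3 arrays below their own 40th percentile were all pregnant, at 5.23, 5.17 and 5.14. H2-Q2 lay below it on 4 arrays and H2-T24 on 2. The chaperones of the endoplasmic reticulum that fold and load class I molecules were on the other side of 0: Pdia3 differed by 0.28 (limma adjusted p 0.058), Canx by 0.19 (0.071) and Calr by 0.20 (0.10). Psme1, a proteasome activator induced by interferon gamma, differed by -0.20 (0.098). Psmb10, the third immunoproteasome subunit, differed by 0.11 and the standard subunits Psmb5, Psmb6 and Psmb7 by 0.04, -0.06 and 0.18; the sign of Psmb5 turned with cyclic loess, to -0.0014. Ciita, the class II counterpart of Nlrc5, differed by 0.09.

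Some markers of macrophages, natural killer cells and dendritic cells were higher in pregnant uterus. Of 13 macrophage markers 12 were tested and 6 rose (Ms4a7, C1qb, Adgre1, C1qc, Mrc1 and Cd68). Ms4a7, with the smallest p, rose by 0.69 ± 0.077 (SE, limma adjusted p 0.012). The intensities of the macrophage list summed to 2122 to 2661 on the pregnant and 1687 to 1883 on the pseudopregnant arrays. Of 10 natural killer cell markers 8 were tested and 4 rose (Gzmb, Il2rb, Ncr1 and Prf1), Gzmb by 1.51 ± 0.27 (SE, limma adjusted p 0.031), with sums of 709 to 1234 against 421 to 623. All 4 pseudopregnant arrays of Eomes, 3 of Gzma and 2 of Ncr1 lay below their own 40th percentile, so Eomes was tested through the pregnant arrays alone. Of 6 dendritic cell markers 5 were tested and 2 rose (Clec9a and Itgax), with sums of 379 to 512 against 327 to 390; Clec9a passed the intensity filter through the pregnant arrays alone, so it could be tested only because it was brighter there. Leaving out pregnant replicate 2 left 4 macrophage, 2 natural killer cell and 0 dendritic cell markers called, and leaving out pseudopregnant replicate 1 left 2, 0 and 0.

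Beside these markers, the members had 0 calls and 21 of 29 differences below 0, while 12 of 12 macrophage markers tested had differences above 0. The 7 class I genes summed to 3979 to 4377 on the pregnant and 4244 to 4358 on the pseudopregnant arrays. Endothelial markers lay on the same side as the class I genes, with 6 of 6 below 0, a median of -0.13, no call, and sums of 2291 to 2555 against 2640 to 2861. Of 9 epithelial markers 7 were below 0 and none was called, with sums of 1697 to 2150 against 2043 to 2684. All 7 stromal markers were above 0 and none was called. What part the make-up of the tissue had in the members' values was not tested.

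Other cell types left little signal. All neutrophil and B cell markers with a probe set were below the filter, as were Cd3d, Cd4, Cd8a and Cd8b1 of the T cell list, and the other 2 T cell markers were not called. All 7 blastocyst markers, among them Cdx2, Pou5f1 and Nanog, were below the filter. Of 5 plasmacytoid dendritic cell markers, a cell type known for making type I interferon, 3 were tested and none was called.

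**Figure D5:**
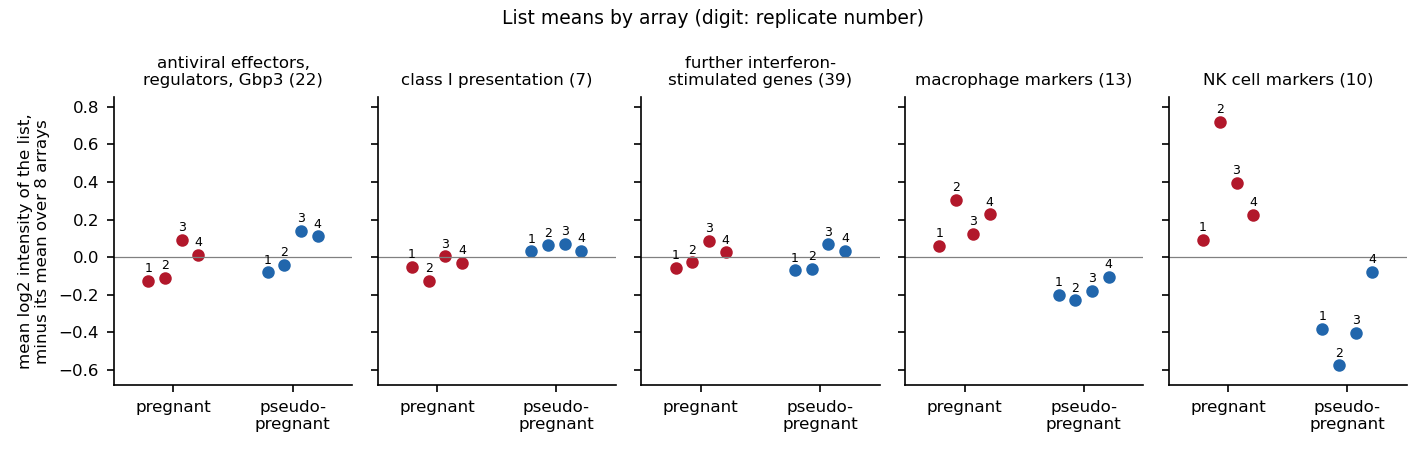
Mean log2 intensity of 5 lists on each array, less the list's mean over the 8 arrays (y axis), with pregnant arrays in red and pseudopregnant arrays in blue; digits are replicate numbers and the number of genes is in brackets. The groups overlap for the 22 members outside class I presentation. For the 7 class I presentation genes pregnant arrays lie lower by a narrow gap (means of 8.04 to 8.17 against 8.20 to 8.23). None of the 7 was called, and their summed intensities overlapped (3979 to 4377 against 4244 to 4358). Pregnant arrays lie apart and higher for the macrophage markers (means of 7.04 to 7.29 against 6.75 to 6.88) and the natural killer cell markers (5.90 to 6.53 against 5.24 to 5.73).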

How the data were processed

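The values were deposited by the authors as 1 linear intensity per probe set and array, made with RMA per the submitters' processing notes. The sources used here do not give RMA's version, settings or probe annotation. RMA makes array distributions alike and compresses changes near background. The 6617 probe sets with the lowest identifiers, none with a listed gene, were left out as presumed array controls. Of the other 28939, 21789 had 1 gene symbol, 1621 several and 5529 none. Log2 was taken, and the 17491 probe sets with at least 4 of 8 arrays above their array's 40th percentile were kept, for 13038 genes. Groups were compared with limma 3.58.1 (lmFit, eBayes, two-sided) in R 4.3.3, with Benjamini-Hochberg adjustment, by code tested on simulated data. Python 3.11.15 and matplotlib 3.10.9 drew the figures. All 32 members with a probe set had their symbol in RefSeq under the same gene number.

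The members and lists were chosen with earlier results of these data known. Named in full were, in each role, the 3 members with the smallest p and that with the largest difference; of other lists, every gene called, up to 3 genes with the smallest p and a fixed set. The alternatives were other filters, normalizations, an offset of 16, limma-trend, array weights, the mean over probe sets, a replicate block and leaving out each array. No batch is labelled, so none could be examined.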

Additional observations from a re-analysis of the deposited data

Results flagged for a closer look

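Arrays that stood far from the other 3 of their group were sought by Dixon's test at its 95% critical value in 120 groups of values, for the tested members and the named pathway genes. It marked 11, and chance alone marks about 1 in 20. Of the members, Gbp3 was high on pregnant replicate 3, at 7.32 against 7.03 to 7.07 on the others. B2m was high on pseudopregnant replicate 4, at 11.55 against 11.47 to 11.48, a small gap in a narrow group.

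Of the receptors and sensors, Ifngr2 was low on pregnant replicate 2 (8.93 against 9.14 to 9.18). Ifnar1 was high on pregnant replicate 4 (8.06 against 7.98 to 7.99). Myd88 was high on pseudopregnant replicate 1 (10.55 against 9.73 to 9.85). Cxcl10 was low on pregnant replicate 4 (5.70 against 6.01 to 6.06).

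Of the class I partners, H2-T10 was low on pseudopregnant replicate 1 (5.40 against 5.61 to 5.62), and Psme1 was high on the same array (8.23 against 8.10 to 8.12). Canx was low on pregnant replicate 2 (11.21 against 11.24 to 11.25). Psmb5 was high on pregnant replicate 4 (9.98 against 9.71 to 9.74), and Psmb6 was low on pseudopregnant replicate 4 (7.66 against 7.82 to 7.84).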

How the results depend on the processing

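No member was called under any of the 18 alternatives run; the smallest adjusted p was 0.063, for Zbp1 with the replicate block. The members below 0 numbered 18 of 23 with the stricter filter, 23 of 32 with no filter and 19 to 24 of 29 in the other settings. Probe sets called over the whole array, 319 as reported, numbered 54 with no filter, 568 with limma-trend, 174 with the replicate block and 40 to 235 with 1 array left out. Other pathway genes called, 4 as reported, numbered 2, 7, 1 and 0 to 3 in the same order. The 2 with no filter were Aim2 and Tlr7, which is not among the 4 reported. Tlr7 lay below the filter on all 8 arrays, at means of 4.60 in pregnant and 4.07 in pseudopregnant uterus. Macrophage, natural killer cell and dendritic cell markers called, 6, 4 and 2 as reported, numbered 2, 0 and 0 with no filter, 3, 1 and 1 with the replicate block, and 2 to 4, 0 to 5 and 0 to 2 with 1 array left out, and no dendritic cell marker was called with the stricter filter; these counts were added after seeing the data. The replicate numbers share only a number: deviations of same-numbered arrays correlated at 0.24, 0.016, -0.10 and 0.044 over 17491 probe sets, and the block ended the calls of Ifngr1, Jak1 and Gbp5. The members' median r was 0.31 without pregnant replicate 2.

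The signs that turned were of differences that were not called, the largest being that of Ifit3 (0.12). With median centring B2m was 0.0045. With quantile normalization repeated Bst2 was -0.0073 and Ifnar1 -0.023; with cyclic loess Ifnar1 was -0.026 and Psmb5 -0.0014. With array weights Ifnar1 was -0.0071, Ifit3 -0.012, Rsad2 -0.057 and Cmpk2 -0.0087. With 1 array left out the difference ran from -0.034 to 0.090 for Bst2, -0.10 to 0.027 for Usp18, -0.041 to 0.037 for B2m, -0.10 to 0.14 for Rsad2, -0.16 to 0.039 for Rtp4, -0.032 to 0.064 for Cmpk2, -0.016 to 0.090 for Irf9, -0.15 to 0.11 for Gbp3, -0.024 to 0.064 for Psmb5, -0.023 to 0.037 for Ifnar1, -0.00093 to 0.13 for Ifit2 and -0.13 to 0.018 for Oasl1. The cause was not tested. The number of arrays, 4 a group, limits the precision (median SE 0.070), and Mx1, Mx2 and Oas3 lay below the filter.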
